A study of Homo sapiens with 5 samples.

Results

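Molecular chaperones bind unfolded or partly folded proteins and help them fold, assemble or be handed on for degradation. HSP70 proteins take up substrates delivered by J-proteins (the DNAJ genes), HSP90 proteins act later on signalling proteins such as kinases and steroid receptors, and the chaperonins, CCT in the cytosol and HSP60 with its lid HSP10 in mitochondria, enclose a substrate in a chamber. Erythroid precursors make large amounts of protein, and HSP70 is known for protecting GATA1 in them. The genes described here were those whose platform symbol, standing alone on a probe set, starts with HSPA, HSPB, HSPD, HSPE, HSPH, HSP90 or DNAJ, or is TCP1 or CCT with a number. They were 63 of the 11963 genes with a probe set of their own, and each was represented by its brightest probe set over the 5 arrays, out of 99 probe sets in all. By a list of locations, 42 act in the cytosol or nucleus, 10 in the endoplasmic reticulum (ER) and 6 in mitochondria, and 5 were left unassigned (CCT8L2, DNAJC22, DNAJC28, DNAJC4 and HSPBAP1).

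The cells were TF-1, an established human erythroleukaemia line that depends on cytokines and was grown in medium with 10% fetal calf serum and GM-CSF. They carried the retroviral vector MSCV-GFP, called vector, or MSCV with DbSCL, a form of the haematopoietic factor SCL that lacks DNA binding. The latter are referred to as mutant SCL cells. After a night without growth factor they received a cytokine for 6 h: GM-CSF at 5 ng/mL, Steel factor (SF, the ligand of the c-Kit receptor) at 20 ng/mL, or erythropoietin (Epo), for which the labels give no dose. The 5 groups were vector with GM-CSF, vector with SF, vector with Epo, mutant SCL with SF and mutant SCL with Epo, each read on 1 Affymetrix array of total RNA. With 1 array per group no difference has a replicate check and no p-value was computed. There was no group without cytokine and none with unmutated SCL added, and no label says whether the transduced cells were a clone or a pool. Values are log2 signals as the authors deposited them, and a difference of 0.58 on this scale is 1.5-fold. No gene's signal was set against another gene's, because probe sets differ in how brightly they report the same amount of RNA.

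The 5 arrays were not alike in their controls, and the vector GM-CSF array lay at one end of several of them. The probe sets for 28S ribosomal RNA ran from 5.80 on vector Epo to 7.82 on vector GM-CSF, and the hybridization controls from 9.85 on vector Epo to 10.82 on mutant SCL SF, with 10.81 on vector GM-CSF. The poly(A) controls were lowest on vector GM-CSF, at 9.73, and highest on vector Epo, at 10.16. The 3′ minus 5′ difference of beta-actin, which grows when RNA is shortened, ran from 1.89 on vector SF to 3.33 on mutant SCL SF. Of 14 markers fixed for TF-1 cells 10 were measured, and all 10 lay above the floor for low signals on every array, between 6.20 and 12.58. Of 7 markers of other cells 6 were measured: CD14 and EPCAM were below the floor on every array, while CD3E, CD3D and COL1A1 were above it on all 5, so a signal above the floor is no proof that a gene is expressed. This floor, a signal of 4.45, is the level under which 40% of the values of ordinary probe sets lie. The part of these control values in the differences below was not tested.

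Of the 63 chaperone genes, 46 were above the floor on all 5 arrays, 6 on some and 11 on none. The 11 were CCT8L2, DNAJB14, DNAJB4, DNAJC10, DNAJC13, DNAJC17, DNAJC28, HSPA13, HSPA1L, HSPB3 and HSPBAP1, so the ER HSP70 HSPA13 and the ER J-protein DNAJC10 give no comparison here. All 6 mitochondrial genes were above the floor on every array, as were 33 of 42 cytosolic and 6 of 10 ER genes. HSPA8, the constitutive cytosolic HSP70, TCP1, the alpha subunit of CCT, DNAJB11 and DNAJC19 have no probe set of their own on this array and are not among the 63. Many deposited signals repeat: 37 of 63 genes (58.7%) hold exactly 1 value on at least 2 arrays, near the 56.9% of all genes, and 19 (30.2%) on at least 3 arrays against 23.6%. A difference of exactly 0 is therefore common and is a feature of the deposited values.

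**Figure D1:**
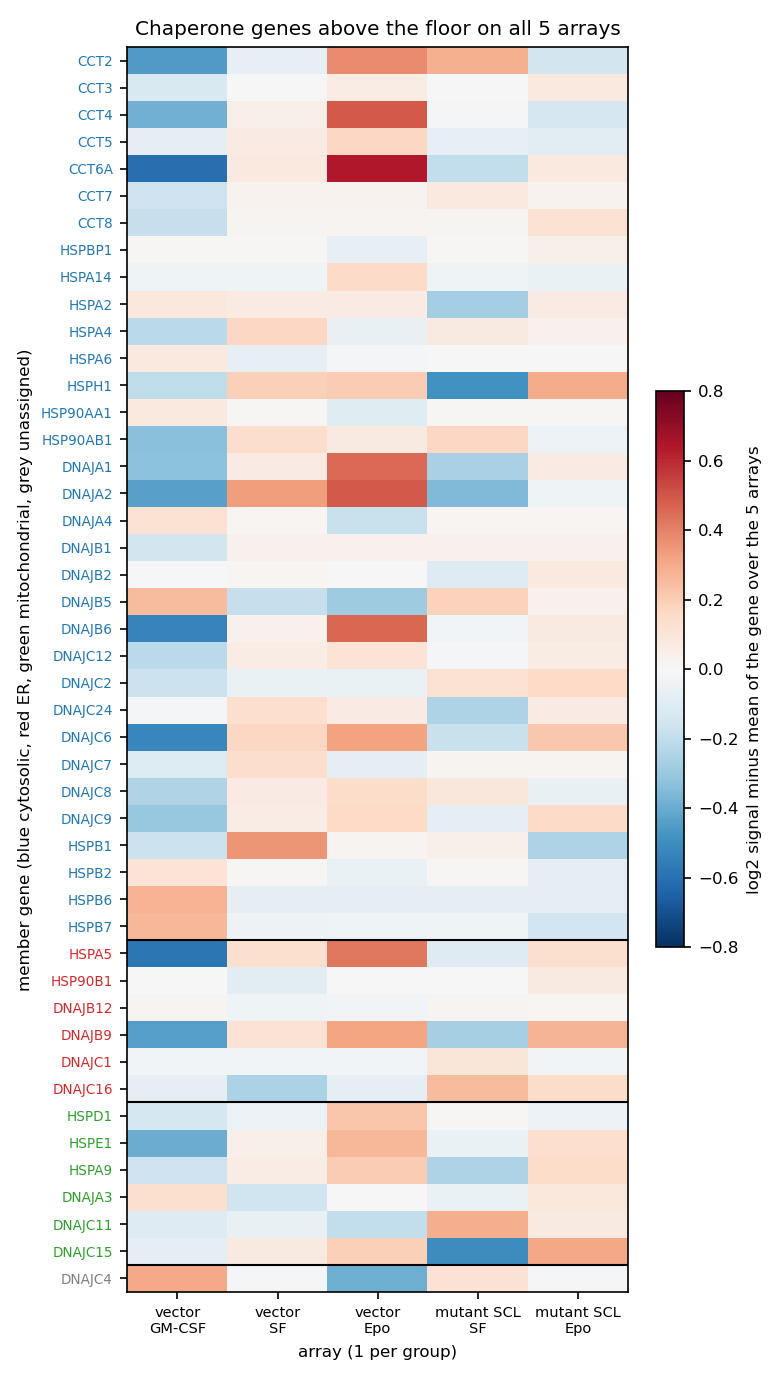
Log2 signal of the 46 chaperone genes above the floor on all 5 arrays, each minus its own mean over the arrays; rows are genes ordered by compartment and family, columns are the 5 arrays. In the first column 22 of the 46 genes have their lowest signal of the 5 arrays, CCT6A, HSPA5, DNAJB6 and DNAJC6 lying farthest below their means.

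A pair of known regulatory sequences, one of the cytosolic and one of the ER stress response, was looked up in the RefSeq promoter windows (GRCh38.p14), which run from 250 bases before to 50 after a transcript start. Heat shock factors bind the heat shock element, built of GAA blocks in alternating orientation, and the unfolded protein response acts through the ER stress element. Windows existed for 57 of the 63 genes. On either strand, GAANNTTC stood in the windows of 14 of these 57 genes (24.6%) against 8.21% of the 27305 genes with a window, and by compartment in 13 of 38 cytosolic, 0 of 9 ER and 1 of 6 mitochondrial genes. The longer form with 3 blocks, GAANNTTCNNGAA or its reverse complement, which contains the shorter form, stood in 0.490% of all 35116 windows and in those of DNAJA1, DNAJB6, HSP90AA1, HSP90AB1, HSPA6 and HSPD1. Capitals mark the blocks, and the sequences read 5′ to 3′ on the strand of the gene:
DNAJA1: gggcgGAActTTCcaGAAcgctc
DNAJB6: gccgaGAAccTTCgcGAAggtgg
HSP90AA1: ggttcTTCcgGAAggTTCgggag
HSP90AB1, first: gcaggTTCtgGAAgaTTCatggg
HSP90AB1, second: gattgTTCtgGAAgcTTCtggat
HSPA6: aaaggTTCgcGAAagTTCgcggc
HSPD1: gcattTTCtgGAAagTTCtgGAAccgag

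These lie at chr9:33025271-33025293 (+), chr7:157336868-157336890 (+), chr14:102087115-102087137 (−), chr6:44247773-44247795 (+), chr6:44247826-44247848 (+), chr1:161524461-161524483 (+) and chr2:197500063-197500090 (−). The HSPD1 stretch is the longest, with 4 blocks. HSPD1 and HSPE1 are a head-to-head pair on chromosome 2. The first HSPD1 start at 197500274 (−) and the HSPE1 start at 197500379 (+) are 105 bases apart. The HSPD1 element lies downstream of this first HSPD1 start and upstream of the second, at 197499840. The ER stress element, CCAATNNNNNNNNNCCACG on either strand, stood in 27 of the 35116 windows (0.0769%) and among the chaperones in those of HSPA5 and HSP90B1 alone, both ER genes. The ER gene DNAJC1 had no window, and variants of the element were not searched for. The 3 copies, with the CCAAT and CCACG blocks in capitals, are shown because only these 2 of the 9 ER genes with a window held this exact string:
HSPA5: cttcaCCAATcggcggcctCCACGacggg
HSP90B1, forward copy: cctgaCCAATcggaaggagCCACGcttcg
HSP90B1, reversed copy: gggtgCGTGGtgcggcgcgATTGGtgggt

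The HSPA5 copy lies at chr9:125241386-125241414 (−), 66 to 48 bases before the start, within this upstream window of chr9:125241344-125241593 (−), printed whole because HSPA5 showed the widest cytokine difference of the ER genes:
HSPA5 upstream: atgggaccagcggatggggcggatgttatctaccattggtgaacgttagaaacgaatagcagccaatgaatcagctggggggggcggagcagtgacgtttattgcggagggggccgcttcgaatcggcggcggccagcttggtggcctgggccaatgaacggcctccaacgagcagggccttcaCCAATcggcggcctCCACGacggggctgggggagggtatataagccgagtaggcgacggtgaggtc

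The HSP90B1 copies lie at chr12:103930211-103930239 (+) and chr12:103930316-103930344 (+). A match says only that these letters are present, and no binding was measured.

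The first comparison was between cytokines in vector cells. Against GM-CSF, Epo went with higher deposited signals of CCT2, CCT4 and CCT6A, of the ER HSP70 HSPA5, of several J-proteins and of HSPE1. At 1.5-fold, 10 of the 51 chaperone genes compared were higher with Epo (19.6%), against 13.2% of all 8581 genes compared, and 1 was lower, against 2.45%. Those higher were CCT6A (1.24), HSPA5 (1.0), DNAJB6 (1.0), DNAJA2 (0.93), CCT4 (0.87), DNAJC6 (0.84), CCT2 (0.83), DNAJA1 (0.78), DNAJB9 (0.75) and HSPE1 (0.66), and the lower one was DNAJC4 (−0.70). At 2-fold, 2 genes were higher, CCT6A and HSPA5, where 3.46% of all genes were. When differences were centred within 10 bins of mean signal, 5 chaperone genes were 1.5-fold higher with Epo in place of 10. Those kept were CCT6A, HSPA5, DNAJB6, DNAJA2 and DNAJB9. CCT2, CCT4, DNAJC6, DNAJA1 and HSPE1, all in the brightest bin, no longer reached 1.5-fold. The count over all genes fell from 1134 to 829. With SF against GM-CSF 4 of 51 genes were higher at 1.5-fold (7.84%), DNAJA2 (0.77), HSPA5 (0.71), DNAJC6 (0.68) and CCT6A (0.68), against 6.9% of all genes, and 0 were lower, against 1.29%. Between SF and Epo directly, 0 of 49 genes differed by 1.5-fold in either direction, where 0.349% of all genes were higher with SF and 1.15% lower. The share with SF is close to the background. As deposited, the share with Epo is above it by an amount that 1 array per group cannot test. With centring within bins, 5 of 51 chaperone genes stood beside 829 of 8581 genes, shares that are near each other. The comparisons with GM-CSF share the GM-CSF array, so a signal low on that array enters both. As these are bulk RNA samples, fewer cells expressing a gene and less of its RNA per cell cannot be told apart.

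**Figure D2:**
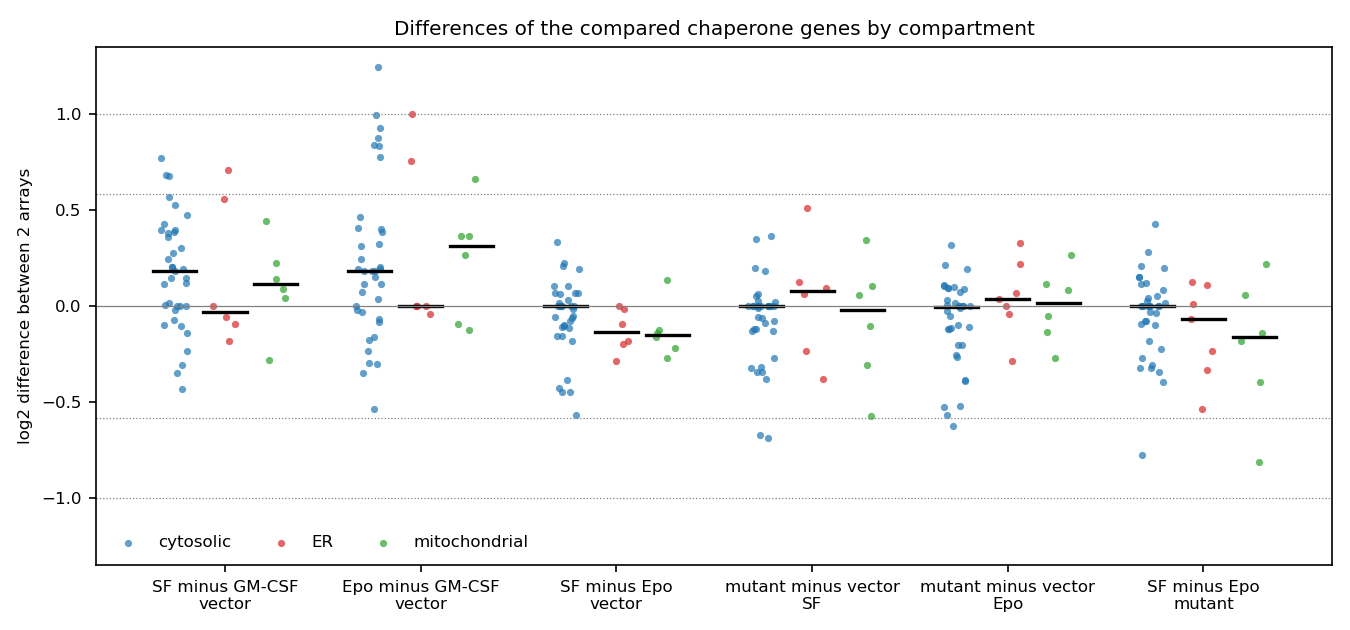
Log2 difference between 2 arrays for each compared chaperone gene of the cytosol, ER or mitochondria (points) in the 6 comparisons, with the median as a black bar and dotted lines at 1.5-fold and 2-fold. The widest points lie in Epo minus GM-CSF, up to 1.24 for CCT6A, while the medians of these 3 compartments stay between −0.16 and 0.31.

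In the cytosol, ER and mitochondria, the medians were small beside the range of the genes. The median difference of Epo minus GM-CSF was 0.18 over 37 cytosolic, 0.00 over 6 ER and 0.31 over 6 mitochondrial genes, and that of all genes compared was 0.00. For SF minus GM-CSF it was 0.18, −0.03 and 0.12. With quantile normalization the cytosolic medians were 0.020 for Epo and 0.039 for SF, and the mitochondrial medians were 0.092 for Epo and −0.023 for SF. Differences above 0 for Epo minus GM-CSF were found for 25 cytosolic genes, with 11 below, where 45.3% of all genes were above and 48.2% below. In the ER 2 were above 0, 1 below and 3 at exactly 0, and in mitochondria 4 were above and 2 below. HSP90B1, among the ER genes at 0, was read on its own dimmer probe set. The 2 brighter probe sets assigned jointly to it and the microRNA gene MIR3652 gave 0.42 and 0.94. Whether the compartments differ was not tested, since genes are not replicates of a condition. Ordered by signal in vector cells, 19 of 46 genes (41.3%) had GM-CSF lowest, SF between and Epo highest, against 28.7% of all 7918 genes above the floor on every array; these were 13 of 33 cytosolic, 2 of 6 ER and 4 of 6 mitochondrial genes. The vector GM-CSF array was the lowest of the 5 for 22 genes (47.8%, all genes 30.9%) and the highest for 10 (21.7%, all genes 26.3%).

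Signal level moved with these differences. With all genes divided into 10 equal bins of mean signal, 20 of the 63 fall in the brightest bin. In that bin the median of Epo minus GM-CSF was 0.32 over all genes and 0.39 over the 20 chaperones, and 27.8% of all genes in it were 1.5-fold higher, against 7 of 20 chaperones (35%). For SF minus GM-CSF the medians were 0.24 and 0.37, and the shares 10.9% and 3 of 20 (15%). In the fifth bin the median over all genes was −0.13. DNAJA2 and DNAJB6 lie in this dimmer range with differences of 0.93 and 1.0, so they stand farther from genes of like signal than CCT2 or DNAJA1 do. The GM-CSF signals of DNAJA2 and DNAJB6, 4.83 and 4.82, were however close to the floor of 4.45, so their differences depend on it. With the floor at the 60th percentile, 5.42, SF minus GM-CSF of DNAJA2 fell from 0.77 to 0.18. Part of the shift of bright chaperone genes against GM-CSF was shared by bright genes in general on these arrays.

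CCT, also called TRiC, is the ring-shaped cytosolic chaperonin that folds actin, tubulin and some cell-cycle proteins, and each ring is built from different subunits. Every compared CCT gene was above 0 against GM-CSF, 8 of 8 with SF and 8 of 8 with Epo, with medians of 0.20 and 0.28, where 46.2% and 45.3% of all genes were above 0. With quantile normalization 5 of 8 were above 0 in each, since CCT3 (−0.11 with SF and −0.15 with Epo), CCT5 (−0.11 and −0.10) and CCT7 (−0.029 and −0.12) turned below it. With centring within bins of signal 4 of 8 were above 0 in each, and with probe sets averaged 7 of 8 with SF. CCT6A, the zeta subunit, had signals of 8.03 with GM-CSF, 8.71 with SF and 9.27 with Epo in vector cells, and 8.43 with SF and 8.71 with Epo in mutant SCL cells. CCT4, the delta subunit, read 10.64, 11.07 and 11.52 in vector cells and 11.01 and 10.89 in mutant SCL cells. CCT2, the beta subunit, read 9.72, 10.10 and 10.55, then 10.45 and 10.02. In all 3 genes GM-CSF gave the lowest of the 5 signals and vector Epo the highest. The remaining subunits moved little: from GM-CSF to Epo CCT3 (gamma) went from 9.31 to 9.49, CCT5 (epsilon) from 9.10 to 9.34, CCT7 (eta) from 9.75 to 9.95 and CCT8 (theta) from 10.49 to 10.69. These differences of 0.18 to 0.24 are no larger than the spread of a difference at this signal, 0.24. They also lie below the 0.32 of all genes in the brightest bin, to which all 7 belong. CCT6B, a subunit known from testis, was near the floor with signals of 4.11, 4.65, 4.76, 4.64 and 4.64. The 3 probe sets assigned jointly to TCP1 and the small nucleolar RNA SNORA29 differed in sign from GM-CSF to Epo, by 0.49, −0.43 and −0.37.

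**Figure D3:**
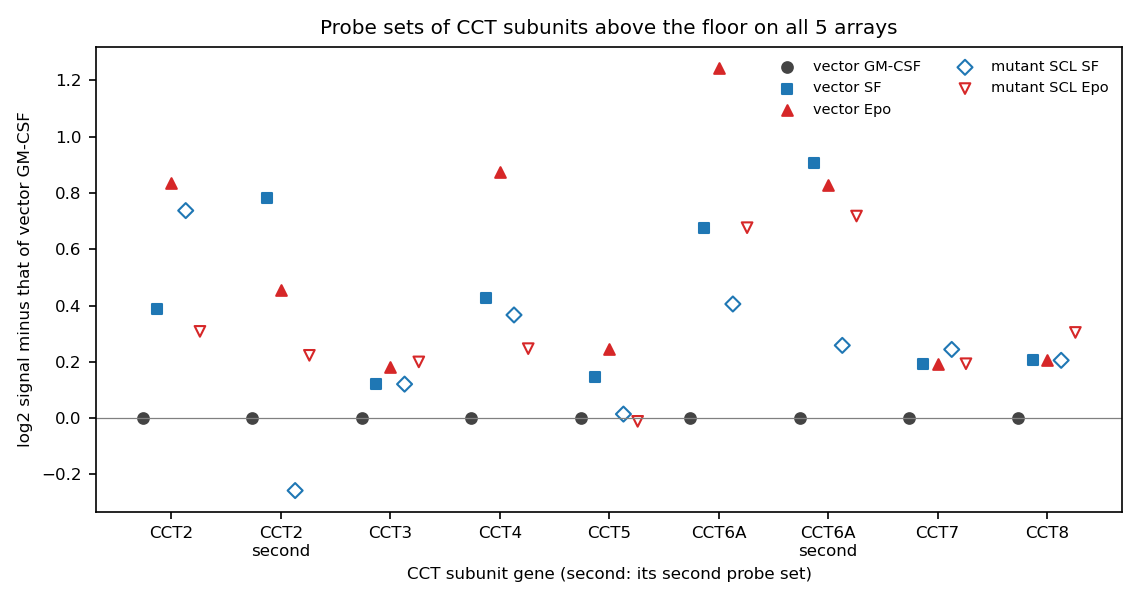
Log2 signal on each array minus that on the vector GM-CSF array (y) for the 9 probe sets of CCT subunits above the floor on all 5 arrays (x); filled symbols are vector cells and open symbols mutant SCL cells. All vector SF and Epo points lie above 0 as deposited, though with quantile normalization those of CCT3, CCT5 and CCT7 turn below it, mutant SCL SF comes next to vector Epo on 1 CCT2 probe set and is the lowest array on the other, and CCT3, CCT7 and CCT8 stay within 0.31.

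Second probe sets kept the sign of these CCT differences but not their order. The second CCT6A probe set differed from GM-CSF by 0.91 with SF and 0.83 with Epo, and the second of CCT2 by 0.78 and 0.45. On both the SF signal was thus above the Epo signal, by 0.08 and 0.33, where the brightest probe sets had it below by 0.57 and 0.45. Over the 17 chaperone genes with several probe sets above the floor, all probe sets of a gene had 1 sign in 14 for SF minus GM-CSF and in 14 for Epo minus GM-CSF, but in only 5 for SF minus Epo.

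Among cytosolic HSP70 and HSP110 genes, no brightest probe set in vector cells exceeded its signal with GM-CSF by more than 0.41. HSPH1, the HSP110 that exchanges nucleotide on HSP70, read 8.35 with GM-CSF, 8.75 with SF and 8.76 with Epo in vector cells. HSPA4, a second member of that branch, read 7.80, 8.18 and 7.96. Its 2 other probe sets above the floor on all arrays were higher than GM-CSF by 0.26 and 0.90 with SF and by 0.37 and 0.63 with Epo. HSPA4L stayed at the floor between 4.41 and 4.56. HSPA6, known as strictly heat-inducible, stayed between 4.98 and 5.12 on all 5 arrays although its window holds a 3-block element. The 3 probe sets assigned jointly to HSPA8 and 2 small nucleolar RNAs disagreed, with −0.01, 0.75 and −0.06 for SF minus GM-CSF.

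The cytosolic HSP90 genes went different ways by brightest probe set. HSP90AA1, the inducible form, read 11.91 with GM-CSF, 11.84 with SF and 11.74 with Epo, the lowest of these being Epo. HSP90AB1, the constitutive form, read 10.30, 10.78 and 10.71, with GM-CSF lowest of all 5 arrays. The 3 other HSP90AA1 probe sets were above GM-CSF with Epo by 0.18, 0.10 and 1.10, against −0.18 for the brightest, so no direction can be given for this gene. The second of HSP90AB1 was above it by 0.85 with SF and 0.41 with Epo.

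J-proteins carry substrates to HSP70 and stimulate its ATP hydrolysis. The general cytosolic co-factor DNAJA1 read 8.38, 8.78 and 9.16 under GM-CSF, SF and Epo in vector cells and 8.45 and 8.77 under SF and Epo in mutant SCL cells. Its paralogue DNAJA2 read 4.83, 5.61 and 5.76, then 4.92 and 5.24. For both, GM-CSF was lowest and vector Epo highest of the 5. DNAJB6, known for holding aggregation-prone proteins, read 4.82, 5.39 and 5.82, then 5.33 and 5.43. A probe set assigned jointly to TMEM135 and DNAJB6 differed from GM-CSF by only 0.12 with SF and 0.20 with Epo. DNAJC6, or auxilin, which uncoats clathrin vesicles with HSP70, read 8.67, 9.35 and 9.51, then 9.01 and 9.40. DNAJB1, a J-protein strongly induced by heat, read 6.94 with GM-CSF and 7.12 on each of the other 4 arrays. DNAJB5 and DNAJC4 were highest with GM-CSF, at 5.86 and 6.11, and lowest with vector Epo, at 5.32 and 5.42. A second probe set of DNAJA1 differed from GM-CSF by 0.26 with SF and 0.29 with Epo, less than the 0.39 and 0.78 of the brightest. The second probe sets of DNAJC6 and DNAJB9 were below the floor on every array.

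Small heat shock proteins hold unfolded clients without ATP. HSPB1 (HSP27) read 6.25 with GM-CSF, 6.78 with SF and 6.44 with Epo, then 6.46 and 6.17 in mutant SCL cells, so that vector SF was the highest of the 5. Of the 5 small HSP genes compared, 1 was above 0 and 4 below for Epo minus GM-CSF, with a median of −0.16. HSPB6 and HSPB7, dim at 4.87 to 5.48, were each highest with GM-CSF.

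In the ER, HSPA5 (BiP), the HSP70 that holds nascent chains and the sensors of the unfolded protein response, read 7.65 with GM-CSF, 8.36 with SF and 8.65 with Epo in vector cells, and 8.13 and 8.36 with SF and Epo in mutant SCL cells. GM-CSF was the lowest and vector Epo the highest of the 5. DNAJB9 (ERdj4), its J-protein partner, read 5.76, 6.31 and 6.51, then 5.93 and 6.47. HSP90B1 (GRP94), the ER HSP90 whose window holds the other ER stress elements, read 6.15, 6.06, 6.15, 6.15 and 6.22 on its own probe set. On 2 probe sets assigned jointly to HSP90B1 and the microRNA gene MIR3652 it was higher than GM-CSF with Epo by 0.42 and 0.94, and with SF by 0.31 and 0.72. DNAJB12, a membrane J-protein, stayed within 7.41 to 7.47, while a second probe set differed from GM-CSF by −0.44 with SF and −0.60 with Epo. DNAJC16 read 5.69, 5.51 and 5.69 in vector cells and 6.02 and 5.91 in mutant SCL cells. DNAJC3 (p58IPK), an inhibitor of the kinase PERK, was above the floor only with mutant SCL Epo, at 4.78.

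In mitochondria, HSPD1 (HSP60) read 11.52 with GM-CSF, 11.61 with SF and 11.88 with Epo in vector cells and 11.67 and 11.61 in mutant SCL cells. Its lid HSPE1 (HSP10) read 8.09, 8.53 and 8.75, then 8.43 and 8.62. HSPA9 (mortalin), the mitochondrial HSP70 that also pulls proteins through the inner membrane, read 9.37, 9.59 and 9.73, then 9.28 and 9.68. On their brightest probe sets the 3 genes had Epo above SF above GM-CSF in vector cells. The second HSPD1 probe set read 8.73, 9.54 and 9.09, with SF above Epo by 0.45. The difference of HSPE1 from GM-CSF to Epo, 0.66, was larger than the spread of a difference at its signal, 0.24. Those of HSPD1 and HSPA9, both 0.36, were larger than it as well but close to the 0.32 of all genes in the brightest bin. HSPE1 belongs to that bin too. The spread was estimated without the vector GM-CSF array, so it may not describe differences from that array. HSPA9 had 2 more probe sets, with Epo minus GM-CSF of 0.95 and 0.38. DNAJA3 (TID1), the J-protein of HSPA9, went the other way, with 7.06, 6.77 and 6.93, and DNAJC11, known from the organisation of the cristae, read 7.19, 7.23 and 7.10. DNAJC15, a J-protein at the import motor, read 6.61, 6.75 and 6.87.

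The second comparison asked what the DNA-binding-defective SCL changes under each cytokine. Differences were smaller than those from GM-CSF. Under SF 0 of 50 chaperone genes were 1.5-fold higher in mutant SCL cells, against 1.42% of all genes, and 2 were lower (4%), against 3.68%: DNAJA2 by −0.69 and HSPH1 by −0.67, the latter by −0.24 on its second probe set. Under Epo 0 of 50 were higher, against 0.694%, and 1 was lower (2%), against 2.78%: CCT4 by −0.63. These shares are near the background. The compartment medians of mutant minus vector were 0.00, 0.08 and −0.02 under SF and −0.00, 0.03 and 0.02 under Epo for cytosol, ER and mitochondria. DNAJC15, at 6.75 in vector and 6.17 in mutant SCL cells under SF, fell short of 1.5-fold at −0.57, and DNAJC24, a J-protein of the diphthamide pathway, read 6.21 and 5.84.

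The genes that differed the same way under both cytokines beyond the spread of a difference were 8 of the 49 measured in both. Lower in both were 5 genes (7.99% of all genes were), CCT6A, DNAJA1, DNAJA2, HSPA5 and HSPB1, and higher in both were 3 (all genes 4.63%), DNAJB5, DNAJC11 and DNAJC16. DNAJA2 was lower by −0.69 under SF and −0.52 under Epo, DNAJA1 by −0.33 and −0.39, CCT6A by −0.27 and −0.57, HSPA5 by −0.23 and −0.29 and HSPB1 by −0.32 and −0.27. DNAJC16 was higher by 0.51 and 0.22, DNAJB5 by 0.37 and 0.32 and DNAJC11 by 0.35 and 0.27. The spread was itself estimated from how the mutant difference under SF departs from that under Epo over all genes. Of these 8 genes 3 have a second probe set above the floor on all arrays, and none of the 3 was beyond the spread under both cytokines: DNAJA1 differed there by −0.01 and −0.05, CCT6A by −0.65 and −0.11 and DNAJC16 by 0.04 and 0.08. All 8 calls thus rest on 1 probe set each. CCT2 alone went opposite ways beyond the spread (all genes 3.72%), with 0.35 under SF and −0.53 under Epo. Its second probe set gave −1.04 and −0.23, which is lower under both.

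Within mutant SCL cells, SF against Epo gave 0 of 51 chaperone genes 1.5-fold higher, against 0.909% of all genes, and 2 lower (3.92%), against 2.8%. They were DNAJC15 (−0.81; 6.17 with SF and 6.99 with Epo) and HSPH1 (−0.78; 8.08 and 8.85). Mutant SCL SF gave the lowest of the 5 signals for both. In vector cells the same comparison gave −0.12 for DNAJC15 and −0.01 for HSPH1. The second HSPH1 probe set gave −0.17 in mutant SCL cells. The mutant SCL SF array also had the largest 3′ minus 5′ difference of beta-actin, 3.33, and of GAPDH, 2.53. The part of this in the low signals was not tested.

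The widest disagreements between probe sets of 1 gene were found in the mutant comparison under SF. For HSPD1 the brightest gave 0.06 and the second −1.24, and for CCT2 0.35 and −1.04. For HSP90AA1 the brightest gave 0.00 and the others −0.32, −0.42 and −0.58, and for HSP90AB1 0.02 and −0.46. Over the 17 genes with several probe sets above the floor, the second probe set lay below the brightest in 12, where 47.5% of the 2216 such genes in all did, and the medians were 0.02 for the brightest and −0.12 for the second. The median disagreement was 0.27, against 0.20 over all such genes, and so not above that of Epo minus GM-CSF, 0.33 against 0.25. Which probe set of a gene reads it better cannot be settled with 1 array per group.

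**Figure D4:**
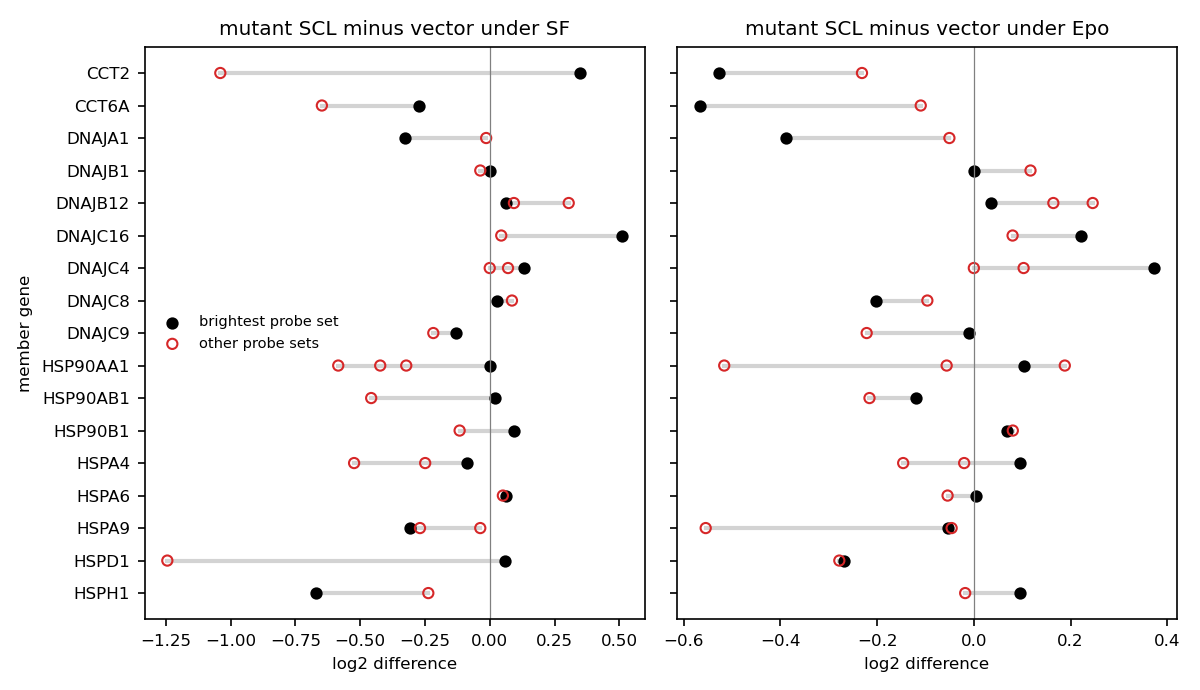
Log2 difference of mutant SCL minus vector under SF (left) and under Epo (right) for the 17 chaperone genes with several probe sets above the floor on all 5 arrays; filled points are the brightest probe set, open points the others. Under SF the open points of CCT2 and HSPD1 lie at −1.04 and −1.24, while their filled points are above 0.

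The differences were also set beside the promoter matches. The 6 carriers with the 3-block form had Epo minus GM-CSF of 0.78 (DNAJA1), 1.0 (DNAJB6), −0.18 (HSP90AA1), 0.40 (HSP90AB1), −0.08 (HSPA6) and 0.36 (HSPD1). Over the 13 compared genes with GAANNTTC the median of Epo minus GM-CSF was 0.19, and over 32 without it 0.17. For mutant minus vector under Epo these medians were −0.10 and 0.03, the widest gap of the 6 comparisons, and under SF 0.00 and −0.01. For SF minus GM-CSF they were 0.18 and 0.14. For SF minus Epo they were 0.00 and −0.06 in vector cells and 0.00 and −0.05 in mutant SCL cells. Of the 2 carriers of the ER stress element, HSPA5 differed by 1.0 and HSP90B1 by 0.00 on its own probe set. On the 2 brighter probe sets assigned jointly to HSP90B1 and MIR3652, Epo minus GM-CSF was 0.42 and 0.94. Of 4 genes listed, heat shock factors and their binding protein HSBP1, 3 were compared: HSF1, HSF4 and HSBP1. None passed 1.5-fold in any comparison. HSF1, the main stress-responsive factor, differed from GM-CSF by 0.08 with SF and −0.14 with Epo, and HSF4 by −0.37 and −0.54.

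Other folding genes were taken from lists. Of 24 cytosolic co-chaperones and prefoldin subunits 19 were compared. Against GM-CSF 1 was 1.5-fold higher with SF and 3 with Epo, VBP1 (0.85), BAG2 (0.74) and PTGES3 (0.71), and 0 were lower. Under SF 16 of the 19 were below 0 in mutant SCL cells, where 41.6% of all genes were, with a median of −0.22 and 2 past 1.5-fold beside 3.68% of all genes, PFDN4 (−0.64) and CDC37 (−0.59), while under Epo 0 passed it and the median was 0.00. Of the 16 other ER folding genes compared, 2 were 1.5-fold higher with SF than with GM-CSF and 5 with Epo. The 5 were SEC63 (0.96), HERPUD1 (0.79), EDEM1 (0.79), PDIA3 (0.72) and P4HB (0.64). The calcium-binding lectin CALR was lower (−0.82), also with SF (−0.65). None of the 6 regulators of the unfolded protein response compared passed 1.5-fold in any comparison, with Epo minus GM-CSF of 0.39 for ATF4, 0.01 for XBP1 and −0.18 for DDIT3. Of 9 other mitochondrial folding and protease genes 3 were 1.5-fold higher with Epo. They were the protease HTRA2 (1.24), the unfoldase CLPX (0.87) and the mitochondrial HSP90 TRAP1 (0.62). In mutant SCL cells CLPX (−0.82) and YME1L1 (−0.73) were 1.5-fold lower under SF, 2 of 9 beside 3.68% of all genes. Under Epo HTRA2 (−0.71) was, 1 of 9 beside 2.78%. The counts 1.5-fold higher with Epo, 3 of 19, 5 of 16, 0 of 6 and 3 of 9, stand beside 13.2% of all genes. Those higher with SF, 1 of 19, 2 of 16, 0 of 6 and 2 of 9, stand beside 6.9%. CALR was the only gene of these lists 1.5-fold lower than with GM-CSF, 1 of 16 with each cytokine. Of all genes 2.45% were lower with Epo and 1.29% with SF.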

How the data were processed

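TF-1 cells were profiled on 5 Affymetrix arrays, 1 per group. The authors deposited 1 log2 signal per probe set and array, and the summary method, its software and any normalization between arrays are not given in the sources used here. The log2 unit was read from the values, which run from 2.08 to 13.77. Of 22215 probe sets that are not controls, 19065 have 1 gene symbol in the platform annotation, 1043 several and 2107 none; only those with 1 were used for the genes, and all 63 matched the current gene table by gene identifier. Control probe sets numbered 68. Per gene the brightest probe set over the 5 arrays was taken. Signals under the 40th percentile (4.45) were set to it, and a gene was compared when at least 1 of the 2 arrays was above it.

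Differences were computed with Python 3.11.15, numpy 2.4.6 and pandas 2.3.3, as deposited, and counted at 1.5-fold and 2-fold beside the same share of all genes. The spread of a difference, 0.14 to 0.24 by signal, was estimated in 10 bins from how far, by the median absolute deviation, the effect of mutant SCL under SF departed from its effect under Epo. It is scaled to 1 standard deviation of a difference and includes any real interaction. It misses shifts shared by an array, and the vector GM-CSF array does not enter it. The counting was tested on simulated data. The genes named were 30 core chaperones whatever their values, any gene at 2-fold, and the 3 largest differences per compartment in each comparison; others with values of their own, such as DNAJC4, were named after their values were seen. The members, compartments and other lists were chosen with earlier results of these data known. Alternatives were quantile normalization, centring on array medians, the mean of all probe sets, no floor, a floor at the 60th percentile and centring within 10 bins of signal. A further one, using genes above the floor on all 5 arrays, was chosen after seeing the data. Promoter windows were read from the RefSeq table on both strands. The precision is limited by having 1 array in each group.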

Additional observations from a re-analysis of the deposited data

Results flagged for a closer look

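CCT2 was higher in mutant SCL cells than in vector cells under SF, by 0.35, and lower under Epo, by −0.53, each beyond the spread of a difference. It was 1 of 49 chaperone genes to go opposite ways beyond the spread, beside 3.72% of all genes. On another CCT2 probe set the 2 differences were −1.04 and −0.23, with no change of sign. Whether these 2 differences differ was not tested, with 1 array per group.

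Of the 3 probe sets assigned jointly to the heat-inducible HSP70 genes HSPA1A and HSPA1B, which stand outside the 63 genes, 2 went opposite ways in the other order. The first gave −0.47 under SF and 0.51 under Epo, with signals of 7.90, 8.02 and 7.78 under GM-CSF, SF and Epo in vector cells and 7.54 and 8.29 under SF and Epo in mutant SCL cells. The second gave −0.80 and 0.41, with signals of 8.30, 8.30 and 8.30, then 7.50 and 8.71. On both, mutant SCL SF was the lowest and mutant SCL Epo the highest of the 5 arrays. The third, shared also with HSPA1L, gave 0.02 and 0.69. The difference between the cytokines was not tested for these probe sets either.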

How the results depend on the processing

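No gene difference at 1.5-fold turned to the opposite sign under the alternatives run, but counts moved. For SF minus GM-CSF the 4 genes at 1.5-fold became 2 with quantile normalization, 7 with centring on array medians and 2 with centring within 10 bins of signal. For Epo minus GM-CSF the 11 became 7 with quantile normalization and 6 within bins. For mutant minus vector under SF the 2 became 1 with quantile normalization and 1 with the floor at the 60th percentile. Under Epo the 1 became 0 with quantile normalization, 2 with centring on array medians and 0 within bins. In mutant SCL cells, SF minus Epo went from 2 to 1 when probe sets were averaged. The mitochondrial median for SF minus GM-CSF moved from 0.12 to −0.080 within bins, −0.023 with quantile normalization and 0.23 with probe sets averaged. For Epo minus GM-CSF it moved from 0.31 to 0.092 (quantile) and 0.048 (within bins). The cytosolic medians, 0.18 in both, fell to 0.039 (SF) and 0.020 (Epo) with quantile normalization and to 0.10 and 0.067 within bins. The cause was not tested.

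Of 20 gene differences at 1.5-fold, 11 remained with quantile normalization, 13 with probe sets averaged, 16 with the floor at the 60th percentile, 11 within bins, and 20 each with centring on medians, no floor and genes above the floor on all 5 arrays. Among all genes, 84.3% of calls for SF minus GM-CSF were higher as deposited, against 68.7% with quantile normalization and 94.9% with centring, and for Epo minus GM-CSF 84.4%, against 65.3%. No paired analysis was possible because each group has 1 array.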
